A study of Rattus norvegicus with 4 samples.

Results

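Members of the p53 response and the D-type cyclins were described in stroke-side cerebral cortex of rats given estradiol or placebo. They were chosen by name from the annotation of the array platform, and a probe set was taken only where one of these names was its only gene symbol. Of 9 named genes, 8 had such probe sets. These are the p53 targets Mdm2, Cdkn1a, Gadd45a and Ccng1, the cyclins Ccnd1, Ccnd2 and Ccnd3, and Myc. They held 24 of 8740 probe sets and 8 of 4736 genes with a symbol of their own. Btg2, an antiproliferative p53 target, had no probe set under this rule and no value is given for it.

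Rat Genome U34A GeneChip arrays, which carry short oligonucleotide probe sets, were hybridised with cortical RNA of ovariectomised female rats. The estradiol group had received 17beta-estradiol replacement and the other group placebo, and in both the middle cerebral artery had been closed for 2 h from inside the vessel, so that ovariectomy and stroke are shared by all 4 arrays. Each group had 2 arrays, each from an independent pool of RNA of 3 animals, here called estradiol 1 and 2 and placebo 1 and 2. The series text names tissue at 6 and 24 h and does not tie these arrays to a time in words. All 4 sample titles carry a 6 in their codes (E6IC and P6IC), and the titles do not spell out its meaning. The sources used here state no age. Arrays of uninjured or opposite cortex were not analysed here, so no value below is a response to the stroke. Because tissue pools were measured, fewer cells of a type and less RNA per cell cannot be told apart.

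The transcription factor p53 is stabilised by DNA damage and cell stress and switches on genes that halt the cell cycle, aid repair or lead to cell death. Mdm2 encodes the ubiquitin ligase that marks p53 for degradation and closes a feedback loop. D-type cyclins bind the kinases Cdk4 and Cdk6, which phosphorylate the retinoblastoma protein and let a cell leave the G1 phase, and the inhibitor encoded by Cdkn1a acts on cyclin and kinase complexes. In mature brain most neurons do not divide, and cyclin D transcripts are known from precursors and glia as well as from injured neurons.

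Promoter windows of GRCr8 from RefSeq, from 250 bases before to 50 bases after the gene start, were found for 6 of the 9 genes. They were searched on both strands for the 10-base consensus to which one pair of p53 subunits binds, a motif that reads the same on both strands. It was present in 3 of the 5 p53 targets with a window, Cdkn1a, Gadd45a and Ccng1, and in 7.98% of all 33469 windows of the same length. No match was found in the windows of Mdm2, Btg2 and Ccnd3. The 3 windows with a match are shown, and those without one are not, with the matched bases in capitals. A match describes the letters of the window and is not a measured binding site.
Cdkn1a, plus strand, chr20:7150682-7150981: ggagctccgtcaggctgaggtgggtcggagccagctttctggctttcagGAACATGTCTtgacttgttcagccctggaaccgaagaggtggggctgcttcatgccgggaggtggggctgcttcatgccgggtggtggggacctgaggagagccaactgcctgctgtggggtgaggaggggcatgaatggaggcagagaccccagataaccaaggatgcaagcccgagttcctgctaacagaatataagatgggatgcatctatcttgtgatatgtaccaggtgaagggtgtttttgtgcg
Gadd45a, minus strand, chr4:97486750-97487049: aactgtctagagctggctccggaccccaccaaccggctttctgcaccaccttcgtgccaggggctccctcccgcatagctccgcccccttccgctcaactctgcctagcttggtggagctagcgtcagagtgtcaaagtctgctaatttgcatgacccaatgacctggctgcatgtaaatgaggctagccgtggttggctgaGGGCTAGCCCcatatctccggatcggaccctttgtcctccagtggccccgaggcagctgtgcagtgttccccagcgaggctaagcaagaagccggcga
Ccng1, minus strand, chr10:25684827-25685126: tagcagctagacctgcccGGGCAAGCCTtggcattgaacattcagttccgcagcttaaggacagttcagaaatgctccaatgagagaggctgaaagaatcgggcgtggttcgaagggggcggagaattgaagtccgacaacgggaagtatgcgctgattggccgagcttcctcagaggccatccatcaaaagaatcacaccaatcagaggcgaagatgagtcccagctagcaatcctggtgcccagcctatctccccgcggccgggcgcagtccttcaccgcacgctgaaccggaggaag

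Values are the authors' deposited linear intensities, and levels are compared only within a probe set. The 4 arrays had median intensities from 55.0 to 57.8. The background level came from 23 foreign controls (bacterial, yeast and mouse transcripts), of which the brightest stood between 30.1 and 37.8 on the 4 arrays. Where a value does not exceed that of its own array's brightest foreign control, it is called at background. Of 11 neuron markers with a probe set, 10 were above background on all arrays. Of the 24 member probe sets, 6 stood at background on every array, at 1.80 to 31.5, and were not tested. They were left out by a filter on the mean over the 4 arrays. The other 18, from 14 source sequences, were tested within the fit of 5244 probe sets, and 16 of them were above background on all 4 arrays.

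**Figure D1:**
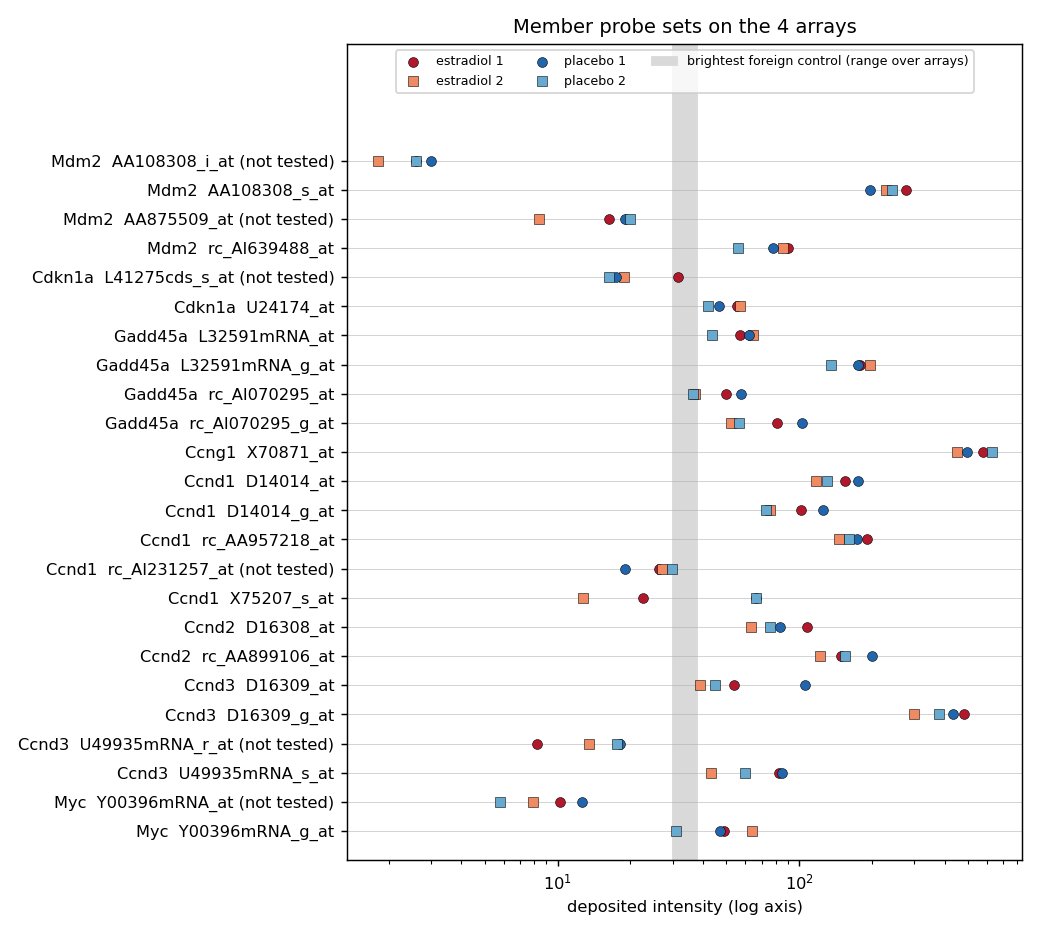
Deposited intensity (log axis) of every member probe set on the 4 arrays, 1 point per array. The grey band is the range of the brightest foreign control, and the 6 untested probe sets lie below it or inside its lower edge, at 1.80 to 31.5.

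None of the 18 tested probe sets passed the threshold between estradiol and placebo. In limma with Benjamini-Hochberg adjustment over 5244 probe sets, calls among members numbered 0 higher and 0 lower, as they did among all probe sets (0% in each direction), and the smallest adjusted p of a member was 0.998. At an unadjusted p below 0.05, 0 member probe sets were higher and 1 was lower with estradiol, the Ccnd1 probe set X75207_s_at, against 1.74% and 1.33% of all tested probe sets. That probe set passed the intensity filter only through its placebo values, so its p gives no support for a difference. With 2 arrays against 2, an exact two-sided permutation test of a single value cannot give a p below 0.333. Of the 18, 7 had a log2 fold change above 0 and 11 below, with a median of -0.08, against 51.6% above 0 and a median of 0.01 over all tested probe sets. This split turned round with single arrays left out, to 15 above and 3 below without estradiol 2 (median 0.14) and to 14 above and 4 below without placebo 1 (median 0.08). Fold changes are on the scale log2(intensity + 16), which understates those of dim probe sets, and SE is that of the limma fit.

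The p53 targets had 5 of 8 tested probe sets above 0, with a median log2 fold change of 0.18. Both arrays of one group lay on the same side of both arrays of the other in 3 of these 8, each time with estradiol higher, which was so in 15.4% of all tested probe sets. These were one probe set each of Mdm2, Cdkn1a and Gadd45a, and no difference passed the adjusted threshold. With estradiol 2 left out all 8 were above 0, with a median of 0.15, and without placebo 2 there were 5 and the median was 0.07.

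Mdm2 had 2 tested probe sets. The EST probe set rc_AI639488_at stood at 90.0 and 85.9 under estradiol, compared with 77.7 and 55.9 under placebo. Both estradiol values were higher than both placebo values, and most of the gap came from placebo 2. The means were 88.0 ± 2.90 (SD, n = 2) and 66.8 ± 15.4, which gave 0.34 ± 0.27 (SE) on the log2 scale, 95% interval from -0.29 to 0.97. It was 0.15 without placebo 2. The probe set AA108308_s_at stood at 277 and 228 under estradiol, compared with 196 and 242 under placebo, with estradiol 1 highest and placebo 1 lowest and the groups overlapping. Its log2 fold change was 0.19 ± 0.23 (SE), and it lay between 0.05 (without placebo 1) and 0.34 (without placebo 2) with one array left out. The other 2 probe sets of Mdm2 were at background on every array. AA875509_at stood at 16.3 and 8.40 under estradiol, compared with 19.1 and 20.0 under placebo, and AA108308_i_at lay between 1.80 and 3.00 on the 4 arrays.

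Cdkn1a encodes p21, an inhibitor of cyclin-dependent kinases and the best known p53 target. Its tested probe set, U24174_at, stood at 55.1 and 56.9 under estradiol, compared with 46.5 and 41.9 under placebo. The estradiol pools nearly coincided and both exceeded both placebo pools. The log2 fold change was 0.26 ± 0.30 (SE), with a 95% interval from -0.45 to 0.96, and it lay between 0.20 and 0.31 with any one array left out. The other probe set, L41275cds_s_at, did not exceed background on any array, at 31.5 and 18.9 under estradiol, compared with 17.5 and 16.3 under placebo, and gives no fold.

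Gadd45a, a growth arrest and DNA damage inducible gene, gave both signs. It was read by 4 tested probe sets from 2 source sequences. L32591mRNA_g_at stood at 179 and 197 under estradiol, compared with 175 and 135 under placebo, with placebo 2 below the other 3 arrays, which were close together. Its log2 fold change was 0.26 ± 0.23 (SE), and 0.10 without placebo 2. L32591mRNA_at, from the same sequence, stood at 57.1 and 64.6 under estradiol, compared with 61.8 and 43.5 under placebo, where placebo 2 was again lowest and the groups overlapped, and its log2 fold change was 0.17.

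The probe sets of the other Gadd45a sequence separated arrays within each group. At rc_AI070295_g_at the values were 81.4 and 52.4 under estradiol, compared with 103 and 56.3 under placebo, so the array numbered 1 was brighter than the array numbered 2 in each group. At rc_AI070295_at they were 49.9 and 37.2 under estradiol, compared with 57.3 and 36.5 under placebo, in the same order, and estradiol 2 was at background. The log2 fold changes were -0.18 and -0.07, less than the difference between arrays of a group, which at rc_AI070295_g_at was 0.51 with estradiol and 0.72 with placebo.

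Ccng1, which encodes cyclin G1, a p53-induced protein that recruits a phosphatase to Mdm2, had a single probe set, X70871_at. It stood at 578 and 452 under estradiol, compared with 495 and 628 under placebo. The placebo values enclosed one of the estradiol values and the groups overlapped. The log2 fold change was -0.12 ± 0.23 (SE), with a 95% interval from -0.65 to 0.41, and it was 0.05 without estradiol 2 and 0.04 without placebo 2.

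Of the 9 tested probe sets of the D-type cyclins, from 7 source sequences, 8 had log2 fold changes below 0, and the median was -0.15. The lower count depended on single pools. Only 3 of 9 were below 0 without estradiol 2, and 3 of 9 without placebo 1, whereas 9 were without estradiol 1 and 8 without placebo 2. Groups did not overlap in 2 of the 9, 1 each of Ccnd1 and Ccnd2, both lower with estradiol, which was so in 14.3% of all tested probe sets. The Ccnd1 probe set, X75207_s_at, passed the filter only through placebo, and without it 7 of 8 were below 0.

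Ccnd1 encodes cyclin D1, the partner of Cdk4 and Cdk6 that mitogens induce in G1. The probe set X75207_s_at stood at 22.6 and 12.7 under estradiol, compared with 66.6 and 66.4 under placebo. Both estradiol values were at background and both placebo values above it. As measured on these arrays, the level was at least 1.86-fold lower with estradiol at this probe set. That bound takes no account of the spread between pools. The fitted log2 fold change was -1.31 ± 0.37 (SE), with an unadjusted p of 0.00798 and an adjusted p of 0.998 in limma. The probe set passed the intensity filter only through its placebo values, so its p values here give no support for a difference. The unadjusted p was 0.0596 without placebo 1 and 0.0555 without placebo 2. The fitted value was -1.91 with an offset of 1 and -0.68 with an offset of 64, and neither it nor the offset of 16 gives a measured fold.

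The other 3 tested probe sets of Ccnd1, all above background on every array, had values closer to 0. D14014_at stood at 154.5 and 117 under estradiol, compared with 176 and 130.2 under placebo, and D14014_g_at, from the same sequence, at 102 and 75.8 under estradiol, compared with 126 and 72.9 under placebo. In both, the arrays numbered 1 were brighter and the groups overlapped. The EST probe set rc_AA957218_at stood at 191 and 146 under estradiol, compared with 174 and 161 under placebo, also with overlap. Their log2 fold changes were -0.15, -0.11 and -0.0047, and the lower bounds of their 95% intervals were -0.74, -0.82 and -0.54. The difference between probe sets was not tested. The fifth probe set, rc_AI231257_at, did not exceed background on any array, at 26.3 and 27.0 under estradiol, compared with 19.1 and 29.9 under placebo.

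**Figure D2:**
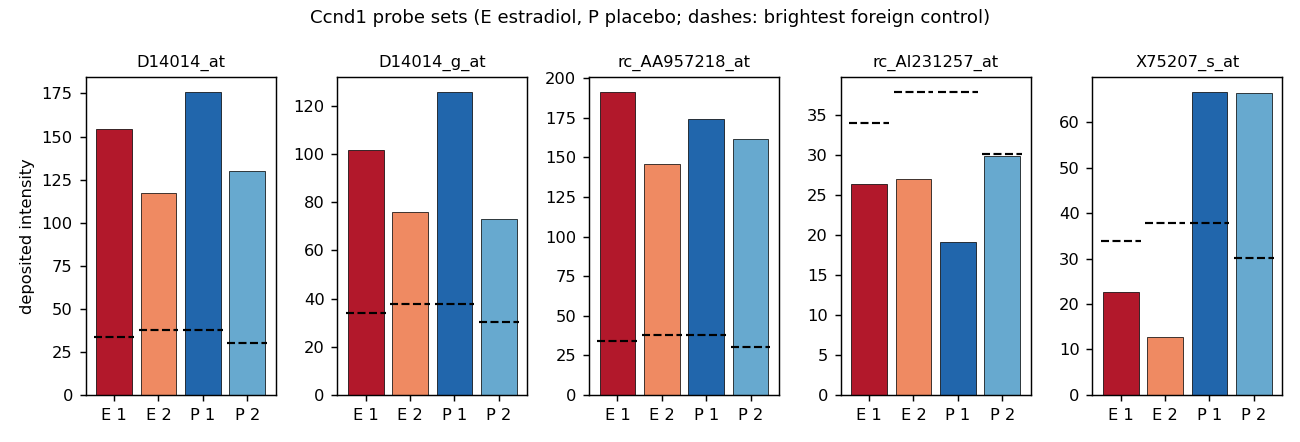
Deposited intensity of the 5 Ccnd1 probe sets, 1 bar per array (E estradiol, P placebo), with a scale of its own in each panel; dashes mark the brightest foreign control of each array. At X75207_s_at both estradiol bars (22.6 and 12.7) lie below the dashes and both placebo bars (66.6 and 66.4) above, whereas D14014_at, D14014_g_at and rc_AA957218_at exceed the dashes on all 4 arrays.

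Ccnd2 encodes cyclin D2, which neural precursors use in the developing and adult brain. At rc_AA899106_at the values were 149.6 and 122 under estradiol, compared with 201 and 154 under placebo. Both estradiol values lay below both placebo values, although estradiol 1 and placebo 2 nearly met. The log2 fold change was -0.35 ± 0.24 (SE), with a 95% interval from -0.91 to 0.21, and lay between -0.52 and -0.17 with one array left out. D16308_at stood at 108 and 63.5 under estradiol, compared with 83.4 and 75.6 under placebo, where the estradiol arrays enclosed the placebo arrays, and its log2 fold change was 0.06 ± 0.30 (SE).

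Ccnd3 encodes cyclin D3, the D-type cyclin found in many differentiated tissues. D16309_g_at stood at 483 and 298 under estradiol, compared with 434 and 380 under placebo, and the estradiol arrays were the highest and the lowest of the 4. D16309_at, from the same sequence, stood at 53.9 and 38.9 under estradiol, compared with 106 and 45.0 under placebo, with placebo 1 far above the other arrays. Its estradiol 2 value exceeded background by little (37.8 on that array). The log2 fold change of D16309_at was -0.48 ± 0.39 (SE), and 0.02 without placebo 1. U49935mRNA_s_at stood at 82.2 and 43.0 under estradiol, compared with 84.7 and 59.6 under placebo. Its groups overlapped, and the log2 fold changes of D16309_g_at and U49935mRNA_s_at were -0.09 and -0.20. The remaining probe set, U49935mRNA_r_at, did not exceed background on any array, at 8.20 and 13.5 under estradiol, compared with 18.2 and 17.6 under placebo.

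Myc encodes a transcription factor that drives growth and division and is induced early in many injured tissues. Y00396mRNA_g_at stood at 48.7 and 64 under estradiol, compared with 47.0 and 30.9 under placebo. All 4 values were above background, placebo 2 by little (30.1 on that array), and the lower estradiol value barely exceeded the higher placebo value. The log2 fold change was 0.40 ± 0.34 (SE), with a 95% interval from -0.39 to 1.19, and it was 0.19 without placebo 2. Y00396mRNA_at, from the same sequence, did not exceed background on any array, at 10.2 and 7.90 under estradiol, compared with 12.6 and 5.80 under placebo.

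**Figure D3:**
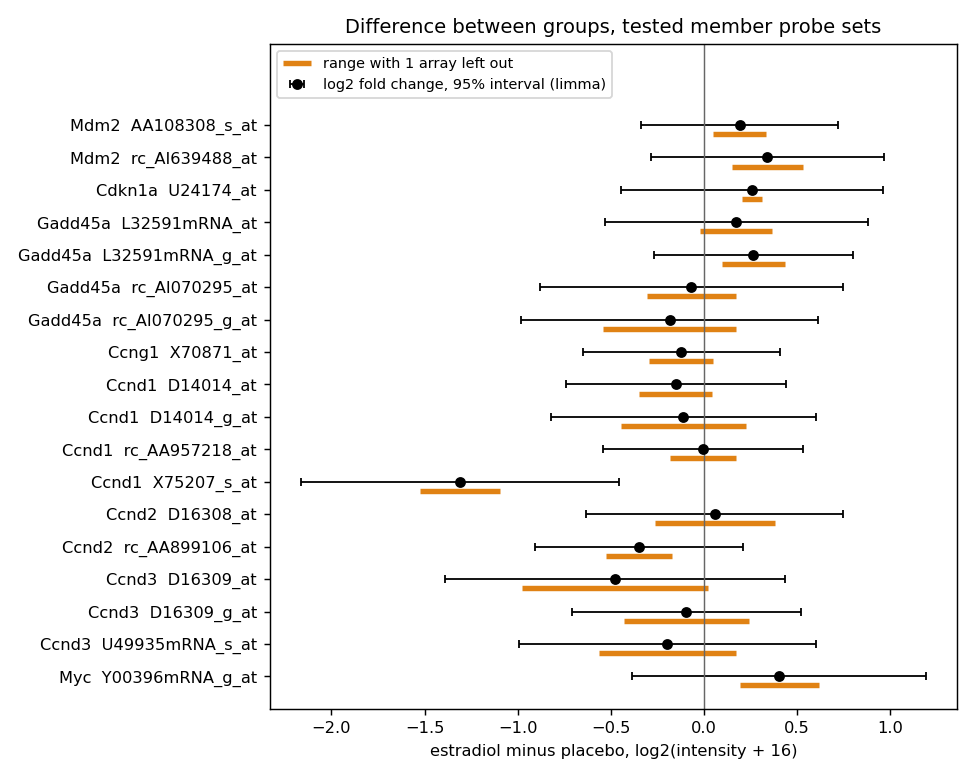
Estradiol minus placebo difference on the scale log2(intensity + 16) for the 18 tested member probe sets, with points for limma estimates, thin bars for 95% intervals and thick bars for the range with 1 array left out. The interval of Ccnd1 X75207_s_at, from -2.16 to -0.45, lies below 0, and those of the other 17 probe sets include 0. X75207_s_at passed the intensity filter only through its placebo values.

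Cyclin D values differed between the pools of a group in the same order in both groups. At all 9 tested probe sets of Ccnd1, Ccnd2 and Ccnd3, from 7 source sequences, estradiol 1 exceeded estradiol 2 and placebo 1 exceeded placebo 2. That order was found in 24.3% of all tested probe sets and the opposite order in 30.3%. The log2 differences ranged from 0.26 to 0.74 between the estradiol arrays and from 0.0035 to 0.998 between the placebo arrays. The lowest of them, at Ccnd1 X75207_s_at between the placebo arrays, is 66.6 against 66.4 and shows no order, and estradiol values there were at background. Among the p53 targets 3 of 8 had this order, at Mdm2 and Gadd45a, and Myc had the opposite signs in the 2 groups. No member probe set that was tested had the arrays numbered 2 brighter in both groups. The untested Ccnd1 probe set rc_AI231257_at had them brighter in both, at background on every array. The number is a name in the labels, which do not say that arrays with the same number share anything. This order was noticed in the values and was not tested.

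**Figure D4:**
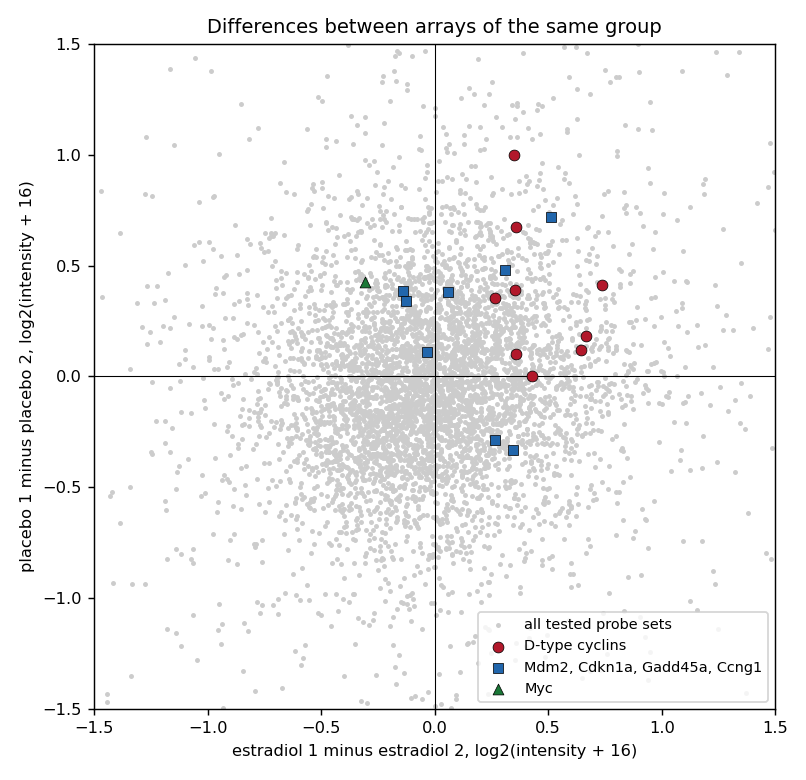
Difference between the arrays of the estradiol group (horizontal) and of the placebo group (vertical) on the scale log2(intensity + 16), 1 point per tested probe set; 137 of 5244 grey points fall outside the axes. All 9 cyclin D points lie to the right of 0 and at or above 0, whereas the points of the p53 targets and Myc spread over 3 quadrants.

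Cell type markers also differed between the pools of a group. The summed intensity of 8 oligodendrocyte and precursor markers was 16611 and 12733 in estradiol 1 and 2 and 20679 and 13330 in placebo 1 and 2, the order of the cyclins, and 10 of 15 tested probe sets of that list had it. All 10 were of the myelin genes Cnp, Mag, Mbp, Mobp and Mog. Mbp alone stood at 9112 and 7301 under estradiol, compared with 12087 and 8178 under placebo. The precursor marker Cspg4 had the opposite order in both groups, and Pdgfra and Sox10 had neither order. The sum of 11 neuron markers had the opposite order, at 8901 and 9984 under estradiol, compared with 7991 and 11506 under placebo, and 11 of 19 tested probe sets followed it. Neuron and oligodendrocyte sums thus ran in opposite order within both groups. Vascular markers summed to 1888 and 1581 under estradiol, compared with 2446 and 1777 under placebo, and 4 of 10 tested probe sets had the cyclin order in both groups. Astrocyte markers summed to 11349 and 11106 under estradiol, compared with 12428 and 11532 under placebo, and had it in 9 of 17 probe sets. Microglia and macrophage markers had it in 1 of 8, with summed levels of 862 and 977 under estradiol, compared with 1185 and 895 under placebo. Choroid plexus and meninges markers summed to 2323 and 6808 under estradiol, compared with 12006 and 1308 under placebo, and blood cell markers to 2275 and 4458 under estradiol, compared with 6462 and 5577 under placebo. These last 3 sums ran one way between the estradiol arrays and the other way between the placebo arrays. Ttr alone stood at 165 and 4312 under estradiol, compared with 8034 and 74.3 under placebo, and Hbb alone at 959 and 2310, compared with 3517 and 3055. The cyclin order was found in 4 of 19 choroid plexus and meninges and 3 of 8 blood cell probe sets. At background on every array were 2 of the 8 microglia and macrophage genes and 1 of the 10 vascular genes. Between the groups, 9 of 10 vascular, 12 of 15 oligodendrocyte and precursor and 6 of 8 blood cell probe sets had log2 fold changes below 0. So had 10 of 17 astrocyte, 10 of 19 choroid plexus and meninges, 9 of 19 neuron and 4 of 8 microglia and macrophage probe sets, and 2538 of all 5244. Some genes were read by several probe sets. With 1 probe set per gene, 3 of 8 oligodendrocyte and precursor genes were above 0. The part of these cell types in the cyclin and p53 target values was not tested.

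Other genes of the same pathways gave no call, and neither did any other of the 5244 tested probe sets. At an unadjusted p below 0.05 in limma, 1.74% of all tested probe sets were higher and 1.33% lower with estradiol. Among 42 listed genes of the p53 pathway, 14 had probe sets of their own, and 14 of their 22 probe sets were tested. In limma 0 passed in either direction at an adjusted or an unadjusted p below 0.05, and 11 of 14 were above 0 with a median log2 fold change of 0.21. That count was 9 of 14 after median centring and 4 of 14 without placebo 2, where the median was -0.09. Groups did not overlap in 2 of 14, both higher with estradiol, a share near the 15.4% of all tested probe sets. Bax, a death effector of the Bcl2 family, is not analysed here.

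Of 56 listed genes of cyclins, kinases, inhibitors and replication, 28 had probe sets and 18 of 39 probe sets were tested. In limma 0 passed at an adjusted or an unadjusted p below 0.05 in either direction. Over all tested probe sets these shares were 0% in each direction at the adjusted threshold, and 1.74% higher and 1.33% lower at the unadjusted one. Here 13 of 18 were below 0, with a median of -0.12, and 6 of 18 were below 0 without estradiol 2. Groups did not overlap in 5 of 18, all lower with estradiol, against 14.3% of all tested probe sets. Cdk4, the catalytic partner of the D-type cyclins, stood at 165 and 148.5 under estradiol, compared with 173 and 121 under placebo. Its groups overlapped, and the log2 fold change was 0.10 ± 0.25 (SE). Cdkn1b, which encodes the inhibitor p27, did not exceed background on any array, at 26.3 and 9.10 under estradiol, compared with 4.60 and 4.30 under placebo. Rb1, the retinoblastoma gene, was not tested, and its brighter probe set stood at 30.9 and 53.1 under estradiol, compared with 26.9 and 29.6 under placebo, above background on estradiol 2 alone. Cdk6 and E2f1 are not analysed here.

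Of 23 listed genes around Myc, 12 had probe sets and 9 of 16 probe sets were tested, with 6 above 0 and a median of 0.08. In limma 0 passed at an adjusted p below 0.05, as among all tested probe sets. At an unadjusted p below 0.05 there were also 0, against 1.74% higher and 1.33% lower of all tested probe sets. Groups did not overlap in 4 of 9 that were higher with estradiol and 1 that was lower, against 15.4% and 14.3% of all tested probe sets. Max, the obligate partner of Myc, stood at 71.8 and 60.6 under estradiol, compared with 87.1 and 50.1 under placebo at D14448_s_at. The placebo arrays enclosed the estradiol arrays, and the log2 fold change was -0.01 ± 0.32 (SE). Its other probe set did not exceed background on any array, at 1.40 to 2.00.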

How the data were processed

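Cortical RNA of 2 estradiol and 2 placebo pools was measured on 4 arrays. The deposited table gives linear intensities, 1 for each probe set on an array, as the authors made them. Their trimmed means, leaving out 2% at each end, lay between 150.18 and 150.20, so arrays had been scaled before deposit. The program and genome build are not given in the sources used here.

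The 59 controls among 8799 rows were set aside. Among the remaining 8740, 7006 had 1 gene symbol, 308 several and 1426 none, and 6985 gene identifiers matched RefSeq genes of GRCr8, which changed 0 symbols. Array medians differed by at most 0.056 on the log2 scale, under a limit of 0.1, so values were used as deposited. The scale was log2(value + 16), and a mean below the 40th percentile (37.5) removed a probe set. Groups were compared by limma 3.58.1 in R 4.3.3 (lmFit, eBayes with an intensity trend, 2 residual and 5.63 prior degrees of freedom, two-sided). Benjamini-Hochberg adjustment ran over 5244 probe sets, with an adjusted p of 0.05 as threshold. The fit was tested on simulated data. It called 29 of 100 probe sets with a true log2 change of 1 in size and 100 of 100 with 3, with 7 false calls. The simulated noise was normal, with an SD smoothed over probe sets of like intensity. Real probe sets vary more unevenly, so these counts check the code and do not give the power of this design. A fold bound sets the brighter group's mean log2 intensity against the dimmer group's, each dim array raised to its brightest foreign control.

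The members and gene lists were chosen with earlier results of these data known. All member probe sets are reported. For the p53 pathway, cell cycle and Myc lists the rule named Cdk4, Cdk6, Rb1, E2f1, Cdkn1b, Bax and Max, of which Cdk6, E2f1 and Bax are not analysed here. It added up to 3 probe sets per direction and list with an unadjusted p below 0.05, of which these 3 lists had 0. Another gene of that rule is not reported here. Promoter windows were searched and figures drawn in Python 3.11.15 (matplotlib 3.10.9, pandas 2.3.3). Depth is not defined for arrays, and 2 pools per group limit the precision. The 12 alternatives tried were other offsets, filters and scalings, no intensity trend, a replicate block and leaving out each array.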

Additional observations from a re-analysis of the deposited data

How the results depend on the processing

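With limma, 0 of all probe sets were called in either direction under all 12 alternatives, and the smallest adjusted p of any member probe set under them was 0.650. Values as deposited gave 91 higher and 70 lower probe sets at an unadjusted p below 0.05, and 71 and 90 with each array centred on its median. All 18 member probe sets kept the sign of their log2 fold change with offsets of 1 and 64, no filter, median centring, quantile normalisation, no intensity trend and the replicate block. The filter at the 60th percentile left 8 of them, all with the same sign, among them 5 cyclin D probe sets below 0 and 2 p53 target probe sets above 0, since fewer were tested. Leaving out an array changed signs. Cyclin D probe sets below 0 then numbered from 3 to 9 and p53 target probe sets above 0 from 5 to 8. With 1 array left out, the log2 fold change ranged from -0.35 to 0.0443 for Ccnd1 D14014_at, -0.45 to 0.23 for Ccnd1 D14014_g_at, -0.18 to 0.17 for Ccnd1 rc_AA957218_at and -0.26 to 0.38 for Ccnd2 D16308_at. It ranged from -0.98 to 0.0222 for Ccnd3 D16309_at, -0.43 to 0.24 for Ccnd3 D16309_g_at, -0.56 to 0.17 for Ccnd3 U49935mRNA_s_at and -0.29 to 0.0497 for Ccng1 X70871_at. The range was -0.13 to 0.33 for Cdk4 L11007_at, -0.0194 to 0.37 for Gadd45a L32591mRNA_at, -0.31 to 0.17 for Gadd45a rc_AI070295_at and -0.54 to 0.17 for Gadd45a rc_AI070295_g_at. The range was -0.33 to 0.31 for Max D14448_s_at. A fit without one array assumes that the lone array of its group varies like the other group. The cause of these changes was not tested.

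The arrays share replicate numbers across groups, which the labels do not tie to a shared litter or batch. Deviations of same-numbered arrays from their group means had a correlation of 0.036 across probe sets, which are not independent. With the number as a replicate block, limma called 0 probe sets, and 123 higher and 87 lower had an unadjusted p below 0.05. The Ccnd1 probe set X75207_s_at had -1.31 with an unadjusted p of 0.0161 in that limma fit. It passed the filter only through its placebo values, so this p gives no support for a difference. With 2 pools per group, the intervals printed show which differences these arrays cannot resolve, and fitted values of probe sets at or near background depend on the offset.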
